A study of Mus musculus and Rattus norvegicus with 30 samples.

Results

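The cytosolic ribosomal protein genes encode the proteins of the large and the small subunit of the ribosome that works in the cytoplasm. They were taken from the mouse and rat dorsal root ganglion (DRG) gene tables by symbol: Rpl or Rps with a number and at most 1 trailing letter, together with Rplp0, Rplp1, Rplp2 and Rpsa, leaving out names that end in -ps and the Rps6k kinases. The rule found 81 genes among 54315 listed features in mouse (49 of the large and 32 of the small subunit) and 83 gene identifiers under 79 symbols among 39281 features in rat. Of these, 79 mouse genes and 53 rat identifiers had enough reads to be tested, among 24685 and 13690 tested features. The rule used names alone, and no measured value.

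Each ribosome carries a single copy of nearly every ribosomal protein, and the cell has to make the proteins in matching amounts. Their mRNAs usually begin with a C followed by an unbroken stretch of pyrimidines, the 5′ terminal oligopyrimidine (TOP) motif, through which the growth-regulating mTOR pathway controls how strongly they are translated. In sensory neurones, mRNAs of ribosomal proteins are also carried into axons, and cutting a peripheral nerve is known to engage growth and regeneration programmes in the cell body.

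RNA was sequenced from DRG of rodents with a nerve injury and of sham-operated controls. Mice of the inbred strains BALB/c and B10.D2 received spared nerve injury (SNI, which cuts the common peroneal and sural branches of the sciatic nerve but leaves the tibial branch whole) or sham surgery, and L3 and L4 DRG of 1 animal per library were collected on day 28. Both sexes were used, and the RNA was depleted of ribosomal RNA. BALB/c gave 6 libraries after sham surgery and 4 after SNI, and B10.D2 gave 5 of each. Male Wistar rats received L5 spinal nerve transection (SNT) or sham surgery, and L5 DRG of 3 animals were pooled per library on day 21. The polyadenylated RNA of 4 libraries per group was sequenced. L3 and L4 ganglia hold uninjured neurones beside the injured ones after SNI, so the mouse values are of mixed tissue. In such bulk samples, fewer cells of a type and less RNA per cell cannot be told apart. P-values measure the spread between these libraries, and each rat library already averages 3 animals.

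Library totals ran from 29.99 to 41.9 M counted read pairs in mouse and from 11.95 to 17.9 M in rat. Levels are given in CPM, the counts of a gene per M counts of the library, with the library total scaled by the trimmed mean of M-values (TMM), and changes are log2 fold changes with their standard error (SE) from edgeR's quasi-likelihood test, adjusted over all features tested. A gene is called where the adjusted p is under 0.05. Injury markers were read beside the labels, although their list was chosen with earlier results of these data known. All 10 were called higher in BALB/c, 9 of them in B10.D2, and 6 of 6 tested in rat. In rat they summed to 365, 406, 373 and 974 CPM in sham libraries 1 to 4 and to 1214 to 1735 CPM after SNT. Sham 4 thus stood apart from the other sham libraries, nearer to the SNT libraries. Of the 12 macrophage markers, 5 were called higher after SNI in BALB/c and 1 in B10.D2, as was 1 of 7 tested in rat. Of the sensory neurone markers, 4 of 13, 4 of 13 and 4 of 7 tested were called lower. Over all features tested, 9.69% were called in BALB/c, 4.58% in B10.D2 and 27.4% in rat, in either direction. The rat libraries sham 4 and SNT 1 lay between the groups on the first principal component.

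The start of the mRNA is shown first, because the TOP motif is what these genes are known to share and the rule did not use it. For 10 genes called in BALB/c after SNI, RefSeq start sites on GRCm38.p6 were found for 9. Below are 30 bases around the start of 4 of them, 5′ to 3′, with the annotated start as the 16th base and, in capitals, the longest pyrimidine run that reaches within 5 bases of it. Rpl35 lies at chr2:39005117-39005146 on the minus strand, Rps15a at chr7:118116133-118116162 on the minus strand, Rps9 at chr7:3704026-3704055 on the plus strand and Rpl12 at chr2:32961697-32961726 on the plus strand.
Rpl35: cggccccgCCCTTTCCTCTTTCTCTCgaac
Rps15a: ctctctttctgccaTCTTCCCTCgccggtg
Rps9: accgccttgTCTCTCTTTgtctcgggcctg
Rpl12: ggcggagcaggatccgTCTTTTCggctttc
In Rpl35 and Rps15a the annotated start was a C inside the run. In Rps9 it was a T inside the run, and in Rpl12 the run began 1 base after the start. No run of at least 5 pyrimidines reached within 5 bases of the annotated start of Rps12, Rplp0, Rps3, Rpl26 or Rpl5.

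Over the whole set, 72 start sites of 60 mouse symbols were in RefSeq. A C at the start base followed by at least 4 pyrimidines was found at 13 of them (18.1%), against 823 of 32851 start sites of all genes (2.51%). With the C allowed within 5 bases of the annotated start the shares were 41.7% and 18.3%. These are matches of letters at annotated starts, which can be some bases from the start used in the DRG.

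All 81 mouse genes had at least 1 count, and all but 3 of them averaged at least 10 CPM over the 20 libraries. Per kilobase of summed exons, the median over these 78 genes was 44.0 CPM, with quartiles at 30.1 and 81.3 and extremes at 12.5 and 430. The large subunit (median 42.3 CPM per kilobase) and the small subunit (49.03) had overlapping ranges. Rplp1, an acidic protein of the P-stalk that recruits elongation factors to the ribosome, had the highest level per length (429.9 ± 30.6 CPM per kilobase, SD, n = 20). It was followed by Rps15 (178 ± 11.8), Rpl38 (159 ± 10.9), Rpl4 (156 ± 6.65) and Rpl36 (143 ± 12.7), of which Rpl38 and Rpl4 did not differ beyond their spread. The order depends on which length is used: with the longest coding transcript in place of summed exons Rplp1 stayed first, Rpl41 came second and Rpl36 fell to the 23rd place, and the rank correlation between both orders was 0.83 over 77 genes, a description of genes in the same libraries.

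**Figure D1:**
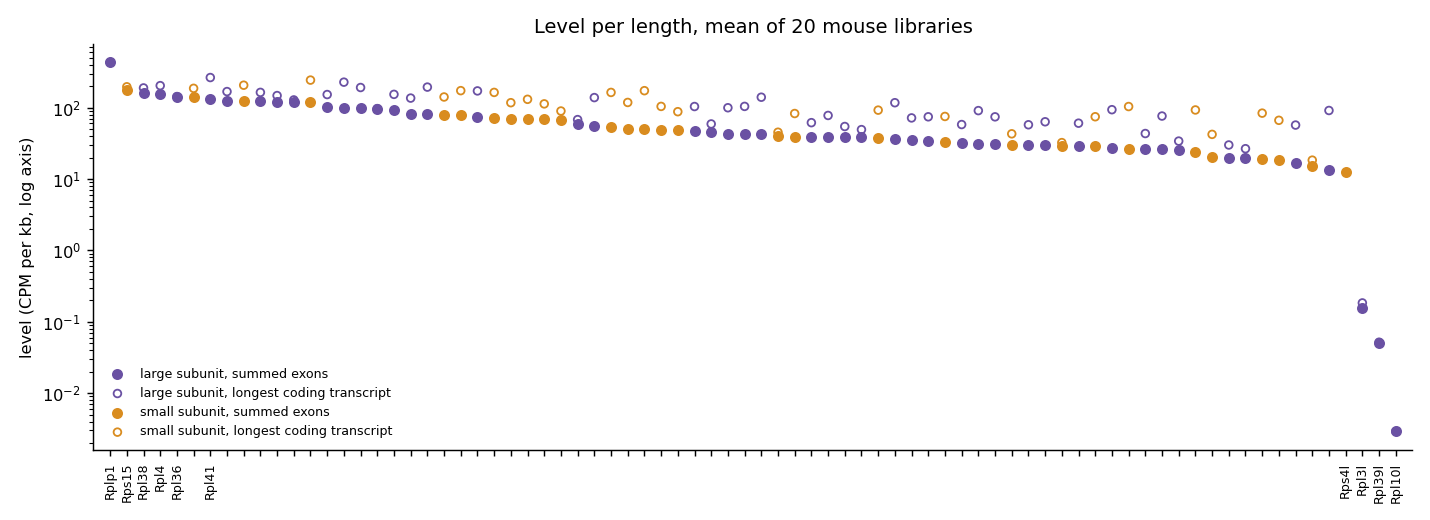
Level per length of 78 ribosomal protein genes in mouse DRG, as the mean of 20 libraries in CPM per kilobase on a log axis, with filled points for summed exons and open points for the longest coding transcript, coloured by subunit, with genes described in the text named. Rpl3l, Rpl39l and Rpl10l lie far below the other drawn genes, which lie between 12.5 and 430 CPM per kilobase, and 3 of the 81 genes are not drawn.

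The 3 genes below that range were paralogues known for expression outside the nervous system. Rpl3l, the heart and skeletal muscle counterpart of Rpl3, stood at 0.154 CPM per kilobase, and Rpl39l and Rpl10l, counterparts known from the testis, stood at 0.0501 and 0.00291. Rpl10l had 2 counts in all, both in 1 library, where 3 counts (the limit below which a level is not given a fold) would be 0.0716 to 0.1 CPM. Rpl39l and Rpl10l were not tested. Rps4l, which the annotation lists as a transcribed processed pseudogene, stood lowest among the other 78 genes at 12.5 CPM per kilobase.

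The set took 0.710 to 0.905% of the counted read pairs of a mouse library and 1.16 to 1.87% of those of a rat library, which came from different RNA fractions and are not compared. In mouse the large subunit summed to 1.496 to 1.63 times the level of the small subunit, and in rat, where fewer genes had counts, to 1.04 to 1.11 times.

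In rat, all 8 libraries held 0 for 25 of the 83 identifiers, which include Rplp0, Rps2, Rpl5, Rpl19, Rps18 and Rps24, although 23 of their mouse counterparts averaged 20.3 to 200.4 CPM. Apart from the paralogues Rpl3l and Rpl39l, every cell uses these genes, so for all 25 it is stated only that they were listed at 0. Over the whole rat annotation 52.2% of 32623 identifiers were listed at 0, against 25.1% in mouse. Of the 58 rat identifiers with counts 5 did not pass the filter on low counts, among them Rps6, whose phosphorylation is the usual readout of mTOR activity (no library above 0.70 CPM), and Rplp2 (1 count in 1 library). Rat values below are therefore of 53 identifiers, and Rps19 and Rps4x each stand for more than 1 of them.

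The summed level of the set was higher after injury on average in all 3 comparisons, with groups that overlapped in each. In BALB/c it was 7784 ± 477 CPM in sham libraries (7268 to 8549, n = 6) and 8436 ± 357 CPM after SNI (8079 to 8783, n = 4). In B10.D2 it was 8336 ± 384 CPM in sham libraries (7912 to 8849, n = 5) and 8677 ± 292 CPM after SNI (8231 to 8994, n = 5). The highest BALB/c sham library, 56, lay above the mean of the SNI libraries, and B10.D2 sham lay close to BALB/c SNI. In rat the SNT libraries 1 to 4 summed to 17960, 17366, 17987 and 16567 CPM, and the sham libraries 1 to 4 to 17892, 12469, 13586 and 17030 CPM. Sham 2 and 3 lay far below all others, while sham 1 and 4 lay within the SNT range. The titles give SNT and sham libraries of the same replicate number a common number whose meaning is not stated. Within these numbers the difference, SNT minus sham, was 67.6, 4897, 4401 and -463 CPM for replicates 1 to 4.

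**Figure D2:**
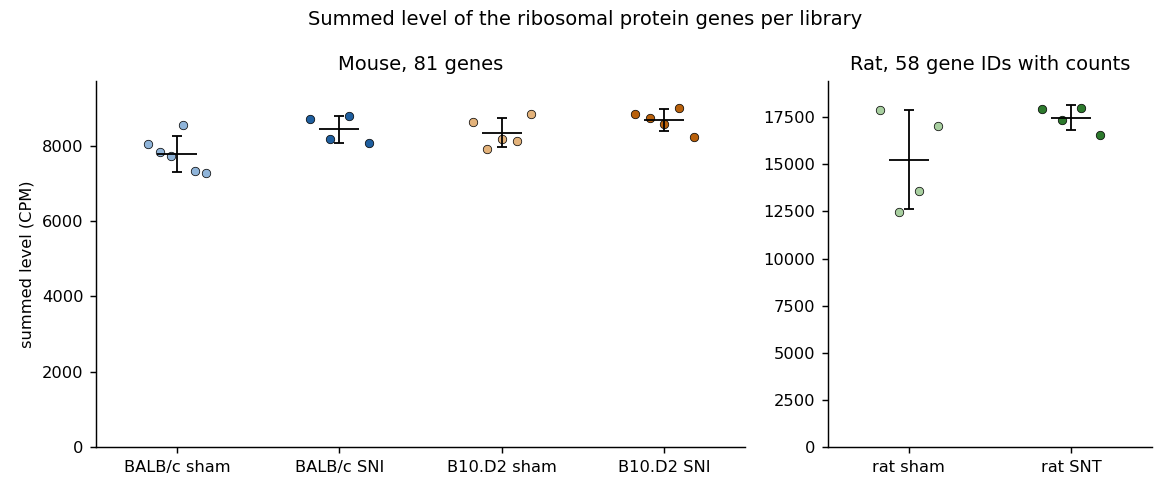
Summed level of the ribosomal protein genes in each library, in CPM, for the 4 mouse groups and the 2 rat groups, with 1 point per library and the mean and SD as a bar with whiskers. The rat sham libraries spread from 12469 to 17892 CPM, and the 4 SNT libraries from 16567 to 17987 CPM.

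Within a group the genes deviated together. Of the 79 tested genes, 78 were above their group mean in BALB/c sham 56 and 67 in sham 50, but 1 in sham 57 and 3 in sham 71. After SNI in BALB/c, 63 and 73 genes were above the mean in libraries 49 and 65, and 11 and 10 in libraries 64 and 70. In rat sham libraries 1 to 4, 48, 2, 2 and 45 of 53 identifiers were above the group mean. Over all features tested the share above the group mean was 45.4 to 49.9% in the mouse libraries and 43.2 to 49.8% in the rat libraries. A gene's change is therefore not independent of that of the others, and the counts of genes below move with single libraries. The median coefficient of variation of a gene between libraries was 5.02 to 7.63% in the mouse groups, 5.94% in rat SNT and 18.2% in rat sham.

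In BALB/c mice, 10 of 79 genes were called higher after SNI and none was called lower, where 4.82% of all features tested were called higher and 4.87% lower (9.69% in all). They were 5 of 47 genes of the large subunit (Rplp0, Rpl5, Rpl12, Rpl26 and Rpl35) and 5 of 32 of the small subunit, among them Rps3, Rps9, Rps12 and Rps15a. The changes were small, with log2 fold changes from 0.16 to 0.28 among the called genes. Over the 79 genes the median log2 fold change was 0.11, against 0.003 over all features, and 77 of 79 were positive where 50.7% of all features were. The median was 0.10 in the large and 0.13 in the small subunit. At an unadjusted p under 0.05 there were 34. The count rested on single libraries: it was 0 without SNI 65, 4 without SNI 49 or SNI 64, 5 without sham 57, sham 71 or B10.D2 sham 67, 6 without B10.D2 sham 77 or B10.D2 SNI 89, and 20 without sham 56. Beside these counts, the summed level of macrophage markers was 82.5 to 202 CPM in BALB/c sham and 172 to 271 CPM after SNI, and its part in the result was not tested.

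Among the small subunit genes, Rps12 had the largest change. It was at 82.1, 93.9 and 107 CPM (lowest, median and highest) in the 6 sham libraries and at 114, 114, 122 and 105 CPM in SNI libraries 49, 64, 65 and 70. The groups overlapped only through SNI 70, which lay below the highest sham library. The log2 fold change was 0.28 (SE 0.07, adjusted p = 0.00887 by edgeR's quasi-likelihood test).

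Rps3, a protein at the mRNA entry channel that also has a role in DNA repair, was at 194, 215 and 233.7 CPM in sham libraries and at 253, 247, 257 and 245 CPM after SNI. All SNI libraries lay above all sham libraries. Its log2 fold change was 0.22 (SE 0.06, adjusted p = 0.0195, quasi-likelihood test). Also called were Rps9, which went from 157 ± 9.15 to 176 ± 9.05 CPM, and Rps15a, from 88.1 ± 6.62 to 101 ± 10.3 CPM (SD, n = 6 and 4).

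Among the large subunit genes, Rplp0, the scaffold of the P-stalk, was at 126, 135 and 142 CPM in sham libraries and at 163, 143, 164 and 151 CPM after SNI. The groups did not overlap, although SNI 64 lay just above the highest sham library. The log2 fold change was 0.21 (SE 0.05, adjusted p = 0.0105, quasi-likelihood test). The P-stalk partners of Rplp0 were not called, at 0.16 (adjusted p = 0.0690) for Rplp1 and 0.18 (adjusted p = 0.0790) for Rplp2 by the same test.

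Rpl35, which sits near the exit of the peptide tunnel, was at 50.8, 52 and 62.2 CPM in sham libraries and at 61.6, 64.4, 64.9 and 59.8 CPM after SNI. The single sham library at 62.2 CPM, 56, lay within the SNI range, and the other 5 lay at or below 53.8 CPM. Its log2 fold change was 0.22 (SE 0.06, adjusted p = 0.0119, quasi-likelihood test).

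Rpl12, a protein at the base of the P-stalk, was at 99, 106 and 126 CPM in sham libraries and at 130, 125, 130 and 120 CPM after SNI, so that sham 56 again lay among the SNI libraries. The log2 fold change was 0.22 (SE 0.06, adjusted p = 0.0168, quasi-likelihood test). Rpl5, which with Rpl11 and 5S RNA binds Mdm2 and so links ribosome assembly to p53, was at 97, 110 and 116 CPM in sham libraries and at 121, 119, 124 and 121 CPM after SNI. The groups of Rpl5 did not overlap, and with a log2 fold change of 0.16 it was the last gene inside the threshold (SE 0.05, adjusted p = 0.0483, quasi-likelihood test). Just outside it were Rps2 (adjusted p = 0.0523), Rpl36a (0.0560) and Rps4x (0.0572), of which Rps2 also had groups that did not overlap.

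Rpl26, which binds p53 mRNA, was at 12.9, 14.1 and 17.6 CPM in sham libraries and at 19.4, 16, 17.7 and 16.8 CPM after SNI, with a log2 fold change of 0.26 (SE 0.07, adjusted p = 0.0308, quasi-likelihood test). SNI 64 and 70 lay below the highest sham library. When reads on near-identical copies of the gene, which are taken up with the strains, were added, the change was 0.09 (adjusted p = 0.386, same test).

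**Figure D3:**
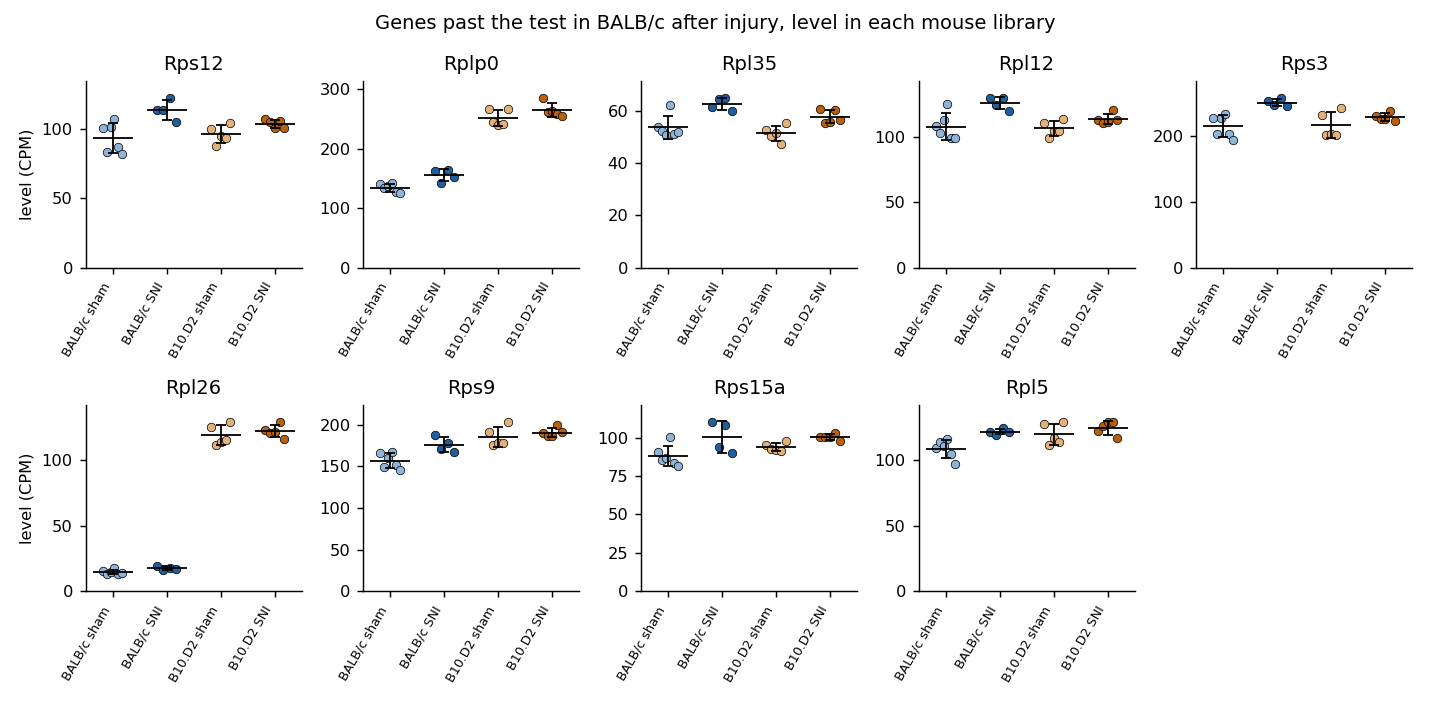
Level in CPM of 9 ribosomal protein genes called higher in BALB/c after SNI, in each of the 20 mouse libraries, with the mean and SD as a bar with whiskers and each axis starting at 0. The BALB/c SNI libraries of Rplp0, Rps3 and Rpl5 lie above all BALB/c sham libraries, and Rpl26 and Rplp0 are far higher in both B10.D2 groups than in both BALB/c groups.

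In 5 of the 79 genes every BALB/c SNI library was above every sham library (Rplp0, Rps3, Rpl5, Rps2 and Rplp2), where this held for 4.3% of all features. Of other genes that mark a function, Rpsa, which is also known as the laminin receptor, had a log2 fold change of 0.13 (adjusted p = 0.0945), Rps6 one of 0.10 (adjusted p = 0.222) and Rps27a, made as a fusion with ubiquitin, one of 0.07 (adjusted p = 0.542). Rpl13a, a control gene of many qPCR assays, had a log2 fold change of 0.04 (adjusted p = 0.775), with a standard error of 0.06. Of the 2 negative values that of Rpl3l was the lower (-0.70, SE 0.73), and it rests on levels from 0.0483 to 1.82 CPM in single sham libraries.

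In B10.D2 mice no gene of the set was called after SNI in either direction, where 2.1% of all features were called higher and 2.48% lower (4.58% in all). By edgeR, 6 genes had an unadjusted p under 0.05, and DESeq2 also called none. The log2 fold change was positive in 71 of 79 genes, where it was positive in 52% of all features, and the median was 0.05 against 0.008 over all features. Groups did not overlap in Rpl35, Rpl37a and Rps15a, 3 of 79 genes, where 2.41% of all features were higher and 2.77% lower without overlap. Rpl35 was at 52.6, 50.4, 51.4, 47.3 and 55.2 CPM in sham libraries 58, 60, 67, 77 and 88, and at 60.6, 55.3, 55.8, 60.3 and 56.4 CPM in SNI libraries 69, 76, 78, 89 and 90. The lowest SNI library lay just above the highest sham library, and the log2 fold change was 0.17 (adjusted p = 0.100, quasi-likelihood test). Rps12 went from 96.3 ± 6.38 to 104 ± 2.95 CPM (SD, n = 5 and 5) and Rplp0 from 252 ± 13.2 to 264 ± 11.9 CPM. Macrophage markers summed to 182 to 202 CPM in sham libraries and to 207 to 372 CPM after SNI.

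Whether the change after SNI differed between strains was tested by the interaction term. No gene of the set was called, where 0.0243% of all features (6) were. The difference of log2 fold changes, B10.D2 minus BALB/c, had a median of -0.06, and 14 of 79 genes were above 0 where 50.2% of all features were. Only Rpl26 had an unadjusted p under 0.05 by the quasi-likelihood test, at -0.22 (SE 0.10), and DESeq2 also called none. Missing the threshold does not show that the strains responded alike. Between female and male mice neither edgeR nor DESeq2 called a gene, where 0.243% of all features were (0.142% higher and 0.101% lower in females), and the only gene with an unadjusted p under 0.05 was Rpl3l.

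**Figure D4:**
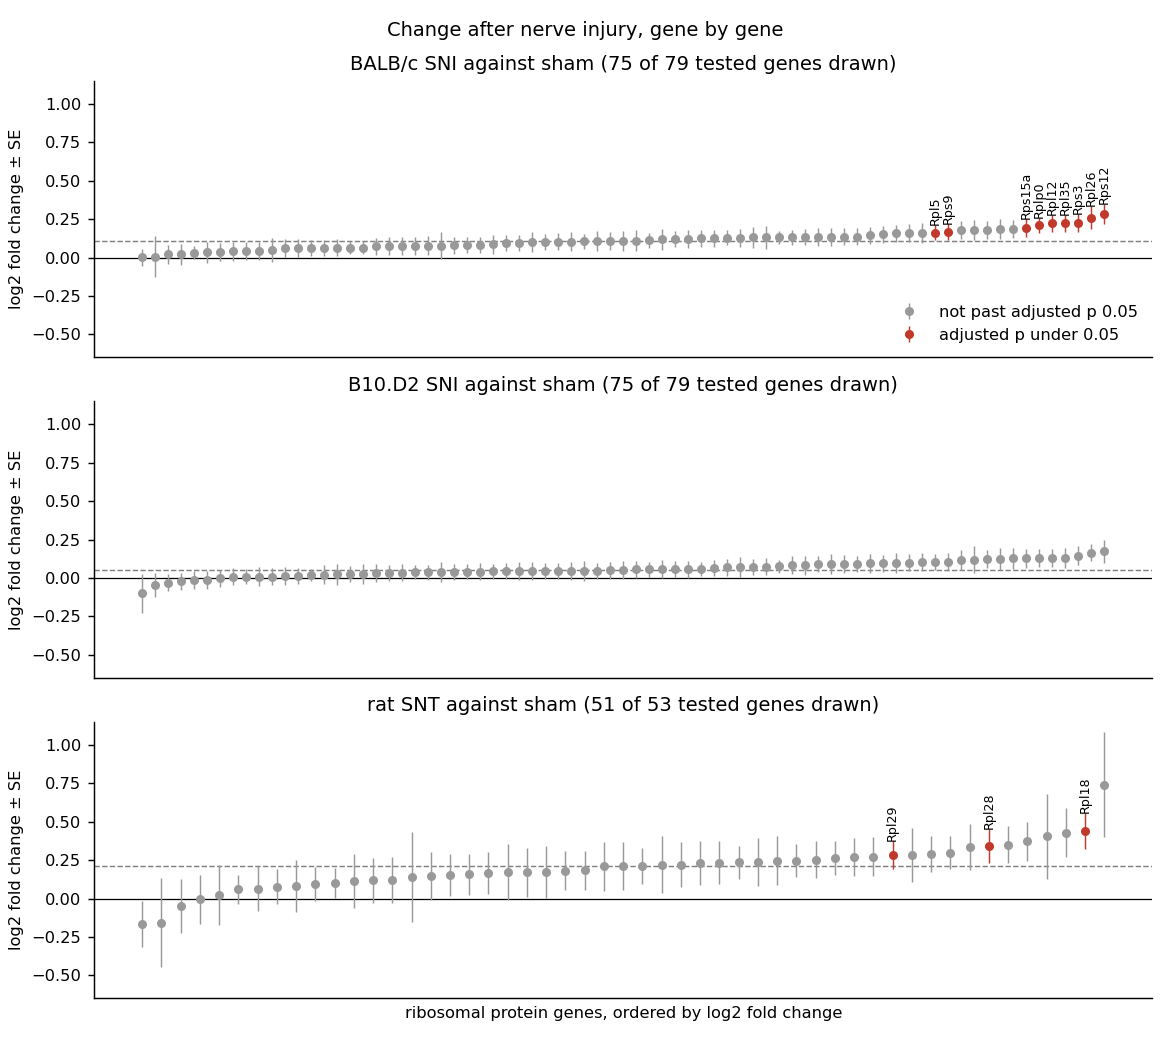
Log2 fold change with its SE of each ribosomal protein gene after SNI in BALB/c, after SNI in B10.D2 and after SNT in rat, ordered within each panel, with called genes named and in red, and a dashed line at the median over all tested genes of the set (75, 75 and 51 genes are drawn). Medians lie at 0.11, 0.05 and 0.21, and Rpl3l, whose SE was 0.73 and 0.93, is not drawn in the mouse panels.

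In rat, 4 of 53 identifiers, among them Rpl18, Rpl28 and Rpl29, were called higher after SNT and none lower, where 12.3% of all features were called higher and 15.1% lower (27.4% in all). The share of called genes was thus below that of all features. The median log2 fold change was 0.21, against 0.003 over all features, and 49 of 53 were positive where 50.2% of all features were. By subunit, 3 of 25 identifiers of the large subunit were called (median 0.24) and 1 of 28 of the small subunit (median 0.18). At an unadjusted p under 0.05 there were 12. The count was 0 without SNT 2 or sham 3, 1 without SNT 3, SNT 4 or sham 2, and 8 without sham 4 or without both sham 4 and SNT 1.

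Rpl18 was at 297, 302, 305 and 306 CPM in SNT libraries 1 to 4 and at 216, 206, 200 and 270 CPM in the sham libraries 1 to 4. The SNT libraries were nearly alike and lay above all sham libraries, of which sham 4 was the highest. Its log2 fold change was 0.44 (SE 0.11, adjusted p = 0.0220, quasi-likelihood test).

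Rpl29 was at 216, 221, 224 and 222 CPM after SNT and at 182, 174, 171 and 198 CPM in sham libraries, without overlap, with a log2 fold change of 0.28 (SE 0.09, adjusted p = 0.0410, quasi-likelihood test).

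Rpl28 was at 110, 139, 121 and 112 CPM after SNT and at 93.5, 99.5, 83.7 and 105 CPM in sham libraries, and its log2 fold change was 0.34 (SE 0.11, adjusted p = 0.0453, quasi-likelihood test). Its groups did not overlap, and SNT 1 lay close to sham 4. Just outside the threshold lay Rpsa, at 793, 814, 840 and 777 CPM after SNT and at 645, 531, 570 and 745 CPM in sham libraries (log2 fold change 0.37, SE 0.13, adjusted p = 0.0548, quasi-likelihood test). In 8 of 53 identifiers every SNT library was above every sham library (the 4 called genes, Rpsa, Rpl4, Rpl14 and Rps13), where 12.2% of all features were.

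The highest level in rat was that of Rplp1, at 922 ± 184 CPM in sham and 1022 ± 80.1 CPM in SNT libraries (SD, n = 4 and 4), with a log2 fold change of 0.15 (SE 0.16, adjusted p = 0.499, quasi-likelihood test). Rpl41, the smallest ribosomal protein, was at 954, 892, 953 and 860 CPM after SNT and at 1053, 656, 716 and 1038 CPM in sham libraries. Sham 1 and 4 lay above all SNT libraries and sham 2 and 3 below them. Macrophage markers summed to 274, 159, 166 and 641 CPM in sham libraries 1 to 4 and to 561, 649, 807 and 536 CPM after SNT. Sensory neurone markers summed to 7281, 10280, 9492 and 7575 CPM in sham libraries and to 8352, 4841, 4157 and 6873 CPM after SNT. Sham 1 and 4, with the highest ribosomal protein levels of the sham group, had its lowest neurone marker levels. Erythrocyte markers, of which 2 of 2 tested were called lower, summed to 545, 1402, 914 and 536 CPM in sham libraries and to 107 to 488 CPM after SNT. Fibroblast markers, of which 1 of 3 tested was called higher, summed to 2010, 883, 1127 and 1515 CPM in sham libraries and to 1860 to 2712 CPM after SNT. Sham 2 and 3 had the highest erythrocyte and the lowest fibroblast marker levels of all 8 libraries. Over all features tested, 12.3% were called higher and 15.1% lower. The part of cell composition in the result was not tested.

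Set side by side, 51 rat identifiers had a tested mouse counterpart of the same symbol. Mouse Rps4x and Rps19 were each entered again for a further rat identifier, so the 51 are not all different mouse genes. The rat Rps19 identifiers averaged only 0.734 to 1.21 CPM by group. Of the 51 identifiers, 48 were positive in rat, all 51 in BALB/c and 46 in B10.D2, while 44 were positive in all 3. Over all features tested, 50.2% were positive in rat, 50.7% in BALB/c and 52% in B10.D2. A share of all features positive in all 3 was not computed. No identifier was called in both BALB/c and rat, where 4 identifiers were called in rat. Rplp0, Rpl5 and Rpl26, called in BALB/c, were listed at 0 in rat and could not be called there. Rpl18, called in rat, had a log2 fold change of 0.12 in BALB/c (adjusted p = 0.157 by edgeR's quasi-likelihood test). Rps12 and Rps3, called in BALB/c, had log2 fold changes of 0.17 and 0.23 in rat (adjusted p = 0.469 and 0.228). Species, injury, spinal level, time and RNA fraction all differ between these experiments and cannot be told apart.

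Between the strains the largest differences exceeded any seen after injury. In sham mice 14 of 79 genes were called higher in B10.D2 than in BALB/c and 3 lower, where 11.5% of all features were called higher and 10% lower (21.6% in all). The median log2 difference was 0.004, and 12 genes were higher and 2 lower in B10.D2 without overlap, where 7.24% and 6.09% of all features were. Rpl26 had the largest difference, at 12.9 to 17.6 CPM in BALB/c sham libraries and at 126, 111, 114, 115 and 129 CPM in B10.D2 sham libraries 58, 60, 67, 77 and 88. The log2 difference was 3.03 (SE 0.07, adjusted p = 2.46e-18, quasi-likelihood test).

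Rpl29, a small basic protein also described at the cell surface as a heparin-binding protein, was at 8.36, 9.35 and 10.8 CPM (lowest, median and highest) in BALB/c and at 48.4, 47.1, 48.1, 46.6 and 48.1 CPM in B10.D2, a log2 difference of 2.31 (SE 0.06, adjusted p = 6.50e-18, quasi-likelihood test). Rpl35a was at 26, 28.3 and 31.2 CPM in BALB/c and at 69.5, 59.2, 63.1, 62.3 and 67.7 CPM in B10.D2, a log2 difference of 1.17 (SE 0.06). Rplp0 was at 126 to 142 CPM in BALB/c and at 266, 245, 240, 242 and 266 CPM in B10.D2 (0.91, SE 0.05). The ranges of the strains lay far apart in these 4 genes. Rps2 (0.65), with a mean of 96.6 against 152 CPM, was the fifth gene by adjusted p.

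Ribosomal protein genes have many processed copies in the mouse genome, and reads of both strains were aligned to the same reference, so the reads on these copies were examined, an analysis added after the differences had been seen. A near-identical copy is here another gene whose transcript matches one of the set over at least 150 bases at 95% identity or more. Copies were searched for the 80 genes with a coding transcript, which leaves out Rps4l. There were 669 such copies in the annotation, of 75 of the 81 genes, with a median of 5 per gene and up to 62 (Rpl21), and 542 of the 557 copies in the count table were annotated as pseudogenes. Summed over all copies the level was 433 ± 34.5 CPM in BALB/c sham libraries (n = 6) and 241 ± 11.05 CPM in B10.D2 sham libraries (SD, n = 5). The sum holds all reads of each such gene, also outside the match. It includes the protein-coding gene BC004004, matched to Rpl21, at 68.5 CPM in BALB/c and 72.9 CPM in B10.D2 sham libraries.

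Of the 17 genes called between strains, 8 had a copy called in the opposite direction (Rpl26, Rpl29, Rpl35a, Rplp0, Rps2, Rpl3, Rpl11 and Rps7). Of the 62 genes not called, 4 had a copy called in either direction. Gm15772, a copy of Rpl26, was at 95.9 ± 7.90 CPM in BALB/c and at 1.51 ± 0.198 CPM in B10.D2 sham libraries (log2 difference -5.98, adjusted p = 4.53e-22, quasi-likelihood test). Gm8730, a copy of Rplp0, was at 45.4 and 0.891 CPM, Rpl3-ps1, a copy of Rpl3, at 29.8 and 2.31 CPM, and Gm8210, a copy of Rpl29, at 3.30 and 0.0103 CPM. The copy Gm10036 of Rpl11, a gene lower in B10.D2 (log2 difference -0.43), had the opposite order, at 0.246 CPM in BALB/c and 28.9 CPM in B10.D2.

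How close such copies can be is shown for 2 genes by the stretch around a difference from the gene, on GRCm38, 5′ to 3′ along the gene's strand, with the differing base in capitals and positions counted from 1 at the 5′ end of the stretch, the gene's base first. Rpl26 (exon 3, chr11:68903283-68903312) and Gm15772 (chr5:3236703-3236732) differed by T16C, 1 of 2 differences over 435 coding bases. Rpl3 (exon 2, chr15:80082515-80082544, minus strand) and Rpl3-ps1 (chrX:13202613-13202642) differed by C16A, 1 of 2 differences over 1209 coding bases.
Rpl26: tggcacaaccgtccaTgtgggcatccaccc
Gm15772: tggcacaaccgtccaCgtgggcatccaccc
Rpl3: gggcttcctgcctcgCaagcgcagcagccg
Rpl3-ps1: gggcttcctgcctcgAaagcgcagcagccg
These are reference bases, and which base each strain carries was not read here.

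When the counts of each gene were summed with those of its copies before the test, 14 genes were called between strains, 12 higher and 2 lower in B10.D2, all of them among the 17. The 3 genes no longer called were Rpl26, Rpl11 and Rps7. Rpl26 with its copies was at 111 ± 9.45 CPM in BALB/c and 121 ± 7.98 CPM in B10.D2 (log2 difference 0.13, SE 0.06, adjusted p = 0.125, quasi-likelihood test), and Rpl11 with its copies differed by 0.01 (adjusted p = 0.959). Rplp0 remained called at 0.31 in place of 0.91, with 204 and 254 CPM, Rps2 at 0.45 and Rpl3 at 0.43. Rpl29 (1.69) and Rpl35a (1.12) kept most of their difference. Per the paper, uniquely mapped read pairs were used. Pairs that fit a gene and a copy equally well are then in neither count, and summing cannot restore them. The part of such pairs in the remaining differences was not tested. A level of a single gene in 1 strain is therefore uncertain where it has such copies, as is its comparison between strains.

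**Figure D5:**
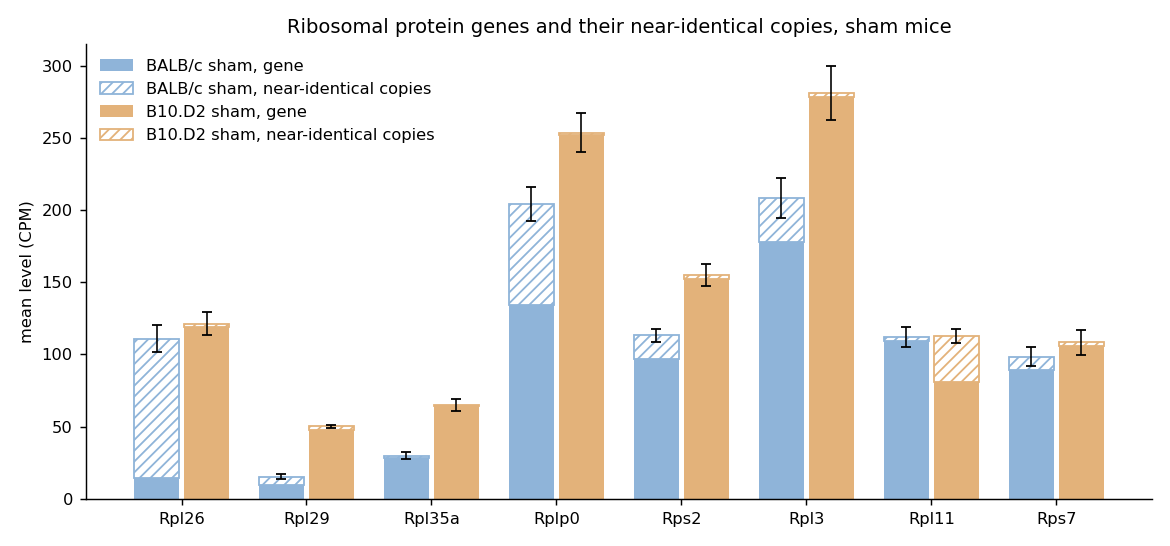
Mean level in CPM in BALB/c and B10.D2 sham libraries of the 8 genes with a copy called opposite to the gene, with solid bars for the gene, hatched bars on top for its near-identical copies and whiskers for the SD of the sum. The bars of Rpl26 reach 111 and 121 CPM with copies, while those of Rpl29 and Rpl35a stay far apart.

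Other genes called between strains had no copy called in the opposite direction, but Rps4l, which has no coding transcript, was not searched for copies. Rps4l was higher in B10.D2 (log2 difference 0.83, SE 0.12, adjusted p = 2.62e-05, quasi-likelihood test), at 13.2 to 17.4 CPM in B10.D2 and 5.71 to 10.5 CPM in BALB/c sham libraries, without overlap. Rps27l, a counterpart of Rps27 induced by p53, was lower (-0.16, adjusted p = 0.0401), as was Rps27 (-0.20). Rpl13a was higher by 0.19 (adjusted p = 0.0175).

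Other genes of protein synthesis were read beside the set. Of the elongation factors, 2 of 7 were called higher after SNI in BALB/c and 1 lower (median 0.08), in B10.D2 none (median 0.01), and in rat 3 of 6 higher (median 0.29). Eef1b2, the exchange factor that reloads elongation factor 1A, went from 124 ± 6.45 to 158 ± 10.1 CPM in BALB/c (log2 fold change 0.35, SE 0.05, adjusted p = 7.05e-05, quasi-likelihood test), and Eef1a1, elongation factor 1A itself, changed by 0.17 (adjusted p = 0.0242). In rat Eef1a1 (0.64, adjusted p = 0.0261) and Eef2 (0.54, adjusted p = 0.0293), which moves the ribosome along the mRNA, were called higher. Of 10 other mRNAs known to carry a TOP motif, 3 were called higher in BALB/c (median 0.08) and 1 in B10.D2 (median 0.02), and none of 4 in rat. They included Vim, the intermediate filament vimentin (0.49 in BALB/c, 0.34 in B10.D2), and Rack1, a scaffold on the small subunit (0.20, adjusted p = 0.0201 in BALB/c).

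Initiation factors did not share a direction: 2 of 35 were called higher and 1 lower in BALB/c (median -0.001), none in B10.D2 (median -0.02), and 2 of 24 higher and 1 lower in rat (median -0.01). The called genes included the helicase Eif4a1 (0.16) in BALB/c and Eif3f (0.66) and the poly(A)-binding protein gene Pabpc1 (0.66) in rat. Of 34 genes of ribosome biogenesis none was called in either strain (medians 0.01 and -0.007), and in rat 3 of 21 were called higher and 1 lower (median 0.11), with Dkc1, the pseudouridine synthase dyskerin, at 0.59. Of 7 related genes that the symbol rule leaves out, such as Fau, which encodes a ribosomal protein fused to a ubiquitin-like protein, none was called after SNI in either strain. Beside these counts, 9.69% of all features were called in BALB/c, 4.58% in B10.D2 and 27.4% in rat, in either direction.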

How the data were processed

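The authors aligned paired-end, strand-specific reads with STAR to mm10 (GRCm38) or rn6 (Rnor_6.0) and counted read pairs per gene with HTSeq, per the methods and the submitters' processing notes, which also name SAMtools and DESeq2. The deposited values are raw counts. Columns of the authors' own fold changes and p-values were not used. Annotated genes and assembled long non-coding RNAs were fitted together, after filterByExpr and TMM scaling, with edgeR 4.0.16 (quasi-likelihood test, R 4.3.3, limma 3.58.1) and Benjamini-Hochberg adjustment over all features tested, with terms for sex and strain by condition in mouse and for condition in rat. The fit was tested on simulated data. DESeq2 1.42.0 was an alternative. A labelled B10.D2 sham (59) and a BALB/c SNI sample (66) were not analysed here. Named genes were the called ones (at most 12 per injury and 5 per strain comparison), fixed genes of known function and the 5 highest and 3 lowest by level. Others named were chosen after their values were seen. Lengths and copies came from GENCODE M21, and start sites from RefSeq. The rat genome was not used. Some items are not reported here. Members and lists were chosen with earlier results of these data known.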

Additional observations from a re-analysis of the deposited data

Results flagged for a closer look

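Rpl35 in BALB/c sham library 56 stood apart from the rest of its group, at 62.2 CPM against 50.8 to 53.8 CPM in the other 5 libraries. The gap was 0.736 of the whole range of the group. It was 1 of 42 groups examined in this way, and chance alone marks about 5% of groups. In the same library 78 of 79 ribosomal protein genes were above their group mean.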

How the results depend on the processing

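The median log2 fold change over the set stayed positive in every alternative run, from 0.08 to 0.14 in BALB/c, 0.03 to 0.09 in B10.D2 and 0.13 to 0.33 in rat, and the counts of called genes between strains, sexes and in the interaction stayed within 1.5 times of those reported. Counts of called genes after injury did not. In BALB/c the count of 10 became 6 with TMM factors computed without the set, 4 with each strain fitted alone, 0 in females alone, 0 in males alone, 20 with library totals alone and 6 without a filter on low counts, and ranged from 0 to 20 when 1 library was left out. In B10.D2 it ranged from 0 to 1 when 1 library was left out. In rat the count of 4 became 9 with DESeq2, 2 without a filter, 8 without the 2 libraries that lay between the groups and 1 with a replicate block on the number in the titles, and ranged from 0 to 8 when 1 library was left out. What the number in the titles stands for is not stated. The deviations of same-numbered libraries correlated at 0.0529, -0.238, -0.0851 and -0.0703, and no sham library correlated best with its own number. With 4 libraries per group, such correlations cannot show whether the samples were paired. In BALB/c the count fell in the fits of 1 strain or sex, which held fewer samples. The cause of this fall and of the other changes was not tested. The sign of small changes reversed for some uncalled genes. For Rps4l in BALB/c it did in females alone (-0.259), without a filter (-0.00445) and when 1 library was left out (-0.107 to 0.063), and for Rpl3l when 1 library was left out, in BALB/c (-1.72 to 0.41) and B10.D2 (-1.08 to 0.32). In B10.D2 males alone it did for Rpsa (-0.00394), Rpl4 (-0.0414), Rplp1 (-0.0295), Rps27a (0.0252), Rps6 (-0.0164) and Rplp0 (-0.0132), and for Rpl13a in females alone (0.0792) and with library totals alone (0.0107). With 1 library left out the B10.D2 values ranged from -0.000322 to 0.04998 for Rpl4, from -0.0058 to 0.0706 for Rplp2 and from -0.0549 to 0.0265 for Rpl13a, and the rat values from -0.0132 to 0.208 for Rpl41, from -0.307 to 0.122 for Rpl10l and from -0.132 to 0.15 for Rps27a.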

Other observations

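The proteins of the mitochondrial ribosome, encoded in the nucleus by a separate set of genes and used to translate the few mRNAs of the mitochondrial genome, had mostly negative log2 fold changes. In BALB/c 1 of 78 was called higher and 3 lower after SNI, where 4.82% and 4.87% of all features were. The median log2 fold change was -0.06, and 64 of 78 were negative. In B10.D2 none was called higher and 1 lower, where 2.1% and 2.48% of all features were. The median there was -0.09, and 73 of 78 were negative. In rat none of 50 was called higher and 14 were called lower after SNT, with a median of -0.32 and 47 of 50 negative, where 15.1% of all features were called lower. Called genes included Mrps12 (-0.27) and Mrpl33 (0.28) in BALB/c, and Mrps10 (-0.60) and Mrps22 (-0.55) in rat. No test compared this set with the cytosolic one.

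Of genes known to control the translation of ribosomal protein mRNAs, 3 of 19 were called higher and 1 lower in BALB/c, and 2 higher in B10.D2. In rat 2 of 10 were called higher and 1 lower. Over all features tested, 9.69% were called in BALB/c, 4.58% in B10.D2 and 27.4% in rat, in either direction. Rps6ka3, a kinase of the ribosomal protein S6, was called lower in BALB/c (log2 fold change -0.31) and in rat (-0.42), and Sesn2, a stress-induced inhibitor of mTOR signalling, was called higher in BALB/c (0.40) and B10.D2 (0.34).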
